A study of Mus musculus with 4 samples.

Results

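Cholesterol synthesis was followed through 8 genes, the transcription factor gene Srebf2 and 7 enzyme genes of the pathway (Hmgcs1, Mvd, Idi1, Fdps, Fdft1, Sqle and Lss), out of 21090 genes in the table. The genes were chosen by name, and all 8 were found. RNA-seq was done on 4 lines of mouse mammary tumor cells, 1 library for each, and levels are given as RPKM (reads per kilobase of gene, scaled to the reads of the library). All lines go back to tumor cells of a mouse model in which Cre from the MMTV promoter switches on an activated Pik3ca allele and a dominant-negative Trp53 allele. According to the study, the knockouts were made in a cell line grown from a primary tumor of such a mouse that had lung metastasis. The controls were the parental line, without any vector, and the vector control line (n = 2). The knockouts were a line with an S100a4 guide RNA against exon 3 and a line with a guide RNA against exon 2 (n = 2), each infected with a lentivirus carrying Cas9 and the guide RNA and selected on puromycin, with no cloning step described. In the sample titles the number of the cells is 308 for the exon 2 knockout and 307 for the other libraries. Each group thus rests on 2 different lines, which are not known to stem from separate tumors, and p-values measure the spread between those lines. No replicate culture of a line was analysed here, and no label gives a batch.

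Cells make cholesterol from acetyl-CoA in a long chain of steps. Early enzymes build mevalonate and convert it to isoprene units, which are joined to farnesyl diphosphate. This is the branch point between sterols and other isoprenoids such as the lipid anchors of small GTPases and ubiquinone. Later enzymes make squalene, close it to lanosterol and trim lanosterol to cholesterol. When membranes run low in sterol, SREBP-2, the product of Srebf2, is released from the endoplasmic reticulum by Scap and cut by the proteases encoded by Mbtps1 and Mbtps2, and its free end enters the nucleus and switches on the enzyme genes. Insig proteins hold it back when sterol is plentiful. Because the control acts on the protein, the Srebf2 transcript is no direct measure of the activity of SREBP-2. PI3K signalling and mutant p53 are both known to promote this pathway in tumor cells.

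S100a4, the edited gene, had an RPKM of 3576 in parental cells, 4741 in vector control cells, 1136 with the exon 3 guide and 1105 with the exon 2 guide, so both libraries labelled knockout lay below both controls. The reads recovered in genes numbered from 14474634 to 20197400 per library. Of 11 epithelial markers, 3 had a mean RPKM of at least 1 (Krt8, Krt18 and Esr1) while Epcam and Cdh1 were below 1 in all lines, against 9 of 10 mesenchymal markers. The sum of the epithelial list, most of it Krt8 and Krt18, was 134 RPKM in parental and 38.0 in vector control cells. It was 110 with the exon 3 guide and 76.5 with the exon 2 guide. Of 6 adipocyte markers, 4 (Adipoq, Plin1, Cidec and Lep) were at 0 in all lines. The sum of the adipocyte list was 91.1 RPKM in the parental line and between 2.95 and 5.64 in the others, almost all of it Fabp4. The sum of the mesenchymal list was 3991 RPKM in the parental line and between 1957 and 2434 in the others, most of it Vim in each line. Vim, Fn1, Twist1, Col1a1 and Col3a1 were highest in the parental line. Zeb1, Zeb2 and Fap were highest in the vector control, Snai1 with the exon 3 guide and Cdh2 with the exon 2 guide. Of 6 immune markers 1, Cd68, had a mean RPKM of at least 1, with a list sum of 3.55 to 4.93 in the controls and 11.6 to 13.2 in the knockouts, and Adgre1 and Cd3e were at 0 in all lines. The part of these differences in the results below was not tested.

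**Figure D1:**
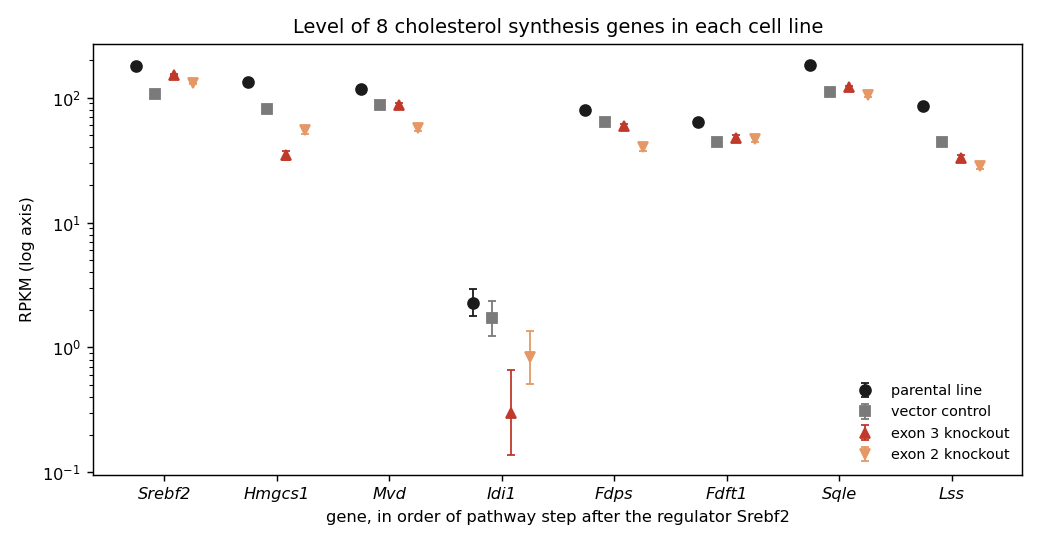
RPKM (log axis) of the 8 genes in each of the 4 lines, 1 library per line, with bars for the 95% Wilson interval of the read count. The parental line holds the highest point for all 8 genes, and Idi1 lies far below the others, at 0.300 to 2.29 RPKM.

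All 8 genes were detected in all 4 lines, and all 8 had a mean RPKM of at least 1. Over the lines the highest means were those of Srebf2, at 143 ± 30.5 RPKM (SD, n = 4 lines), and of Sqle, at 130 ± 36.7. Mvd followed at 87.7 ± 24.5, Hmgcs1 at 76.2 ± 42.8, Fdps at 60.9 ± 16.7, Fdft1 at 50.7 ± 8.74 and Lss at 48.1 ± 26.4. Sqle and Mvd were farther apart than the SD of either, although their levels over the lines overlapped (105 to 184 and 57.4 to 117 RPKM), and other neighbours among these 7 differed by less than the larger of their SDs. Idi1 stood apart at 1.28 ± 0.888 RPKM. The order rests on the gene lengths the authors used, which were equal to the annotated coding length for Mvd, Idi1, Fdft1 and Sqle. The length recovered from the values was 825 bases for Hmgcs1, whose longest coding sequence has 1563 bases. The recovered lengths of Srebf2, Fdps and Lss exceeded their longest coding sequences. For a gene without a match to an annotated coding length, the true length and reads may be a whole multiple of those recovered. The RPKM values do not depend on that factor.

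Some of these genes share sequence with other annotated genes, which can take reads away from them or lend reads to them, depending on how the authors placed reads with several matches. Of the 75-base pieces of the coding sequence, 86.0% of those of Fdps and 78.4% of those of Idi1 occur unchanged in transcripts of other genes in GENCODE, and 18.7% of those of Fdft1. The share was 0 for the other 5 genes. The values of Fdps and Idi1 are therefore uncertain, and the levels of Idi1 rest on 61 reads in parental cells, 37 in vector control cells, 6 with the exon 3 guide and 16 with the exon 2 guide. For the other 7 genes the read count was at least 668 in every library.

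The design asks first whether the genes differ between the S100a4 knockouts and the controls. The 7 enzyme genes had negative log2 changes, led by Hmgcs1, Lss and Idi1, and Srebf2 had a change near 0. Over all tested genes, 5974 changes were negative and 4897 positive. The median log2 change of the 8 genes was -0.53, against -0.08 over all 10871 genes tested. In bulk RNA, fewer cells with a transcript and less of it per cell cannot be told apart. In limma with Benjamini-Hochberg adjustment 0 of the 8 genes had an adjusted p under 0.05, and 0.0184% of all tested genes did. At an unadjusted p under 0.05, 3 of the 8 were lower and 0 higher, where 1498 of all 10871 tested genes (13.8%) were lower and 578 higher. In 4 of the 8 (Hmgcs1, Idi1, Fdps and Lss) both knockouts lay below both controls, which 31.2% of all tested genes did, and in 0 of the 8 both knockouts lay above, which 21.9% did. On the log2(RPKM + 1) scale of the test, both knockouts were at least 2-fold below each control for 0 of the 8 and for 1.73% of all tested genes. In RPKM without the pseudocount Idi1 was past 2-fold in all 4 pairs, on few reads. An exact permutation test of 2 lines against 2 cannot give a two-sided p below 1 in 3.

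Srebf2 (chromosome 15 from 82147181 to 82205379, plus strand, GRCm38) encodes the precursor of SREBP-2. Its RPKM was 179 in parental cells, 107 in vector control cells, 153 with the exon 3 guide and 131 with the exon 2 guide. Both knockouts thus lay between the 2 controls, and the groups overlapped. The log2 change was 0.03 with an SE of 0.328 and an adjusted p of 0.972 in limma. Its sign depended on the processing, with -0.06 after correction for GC content and length and -0.14 after quantile normalization, so no direction can be given.

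Hmgcs1 (chromosome 13 from 119690379 to 119708260, plus strand) encodes the cytosolic HMG-CoA synthase, which joins acetoacetyl-CoA and acetyl-CoA early in the pathway. Its RPKM was 133 in parental cells, 81.8 in vector control cells, 34.5 with the exon 3 guide and 54.9 with the exon 2 guide. The groups did not overlap, and neither did the counting intervals of the nearest lines, 78.0 to 85.7 in the vector control and 51.6 to 58.4 in the exon 2 knockout. The mean was 108 ± 36.6 in the controls and 44.7 ± 14.4 in the knockouts (SD, n = 2 each), which is 41.5% of the control mean. The log2 change was -1.24 (SE 0.352), at percentile 3.46 of all tested genes. It was the most negative of the 8 with a pseudocount of 1, but Idi1 was at -1.77 against -1.26 for Hmgcs1 with a pseudocount of 0.1, and Lss at -1.10 against -0.93 after the GC and length correction. Its adjusted p in limma was 0.136, with a range of 9.66e-04 to 0.643 over the alternatives.

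The promoters of these 2 genes are shown because both hold a match to the core of the sterol regulatory element, the site that SREBP-2 binds, while the groups overlapped for Srebf2 and did not for Hmgcs1. RefSeq promoter windows (GRCm38.p6) were matched for 5 of the 8 genes (Srebf2, Hmgcs1, Mvd, Idi1 and Lss). The 250 bases before the start site were searched on both strands for TCACNCCA, and a match was found in 2 of the 5, in Srebf2 at 162 and in Hmgcs1 at 137 bases before the start. It is found in 3.67% of all 32851 such windows. CCAAT, the box bound by the partner factor NF-Y, was found in all 5 and in 33.8% of all windows, and CACGTG in 0 of the 5 and in 6.02%. The matches shown do not overlap a CCAAT. The capitals mark the match, which reads TCACCCCA in both genes. The stretches are chr15:82147077-82147144 for Srebf2 and chr13:119690184-119690251 for Hmgcs1, both on the plus strand.
Srebf2: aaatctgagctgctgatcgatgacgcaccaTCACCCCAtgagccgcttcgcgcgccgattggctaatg
Hmgcs1: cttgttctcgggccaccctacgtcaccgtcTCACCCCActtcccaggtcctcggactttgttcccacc
A match in letters describes the window and does not show binding in these cells.

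Mvd (chromosome 8 from 122433601 to 122443422, minus strand) encodes the decarboxylase that makes isopentenyl diphosphate. Its RPKM was 117 in parental cells, 87.9 in vector control cells, 88.1 with the exon 3 guide and 57.4 with the exon 2 guide. The exon 3 knockout was level with the vector control, and only the exon 2 knockout lay below both controls. On the log2 scale the change was -0.51 with an SE of 0.326 and an adjusted p of 0.407 in limma.

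Idi1 (chromosome 13 from 8885501 to 8892451, plus strand) encodes the isomerase that turns isopentenyl into dimethylallyl diphosphate. Its RPKM was 2.29 in parental cells, 1.71 in vector control cells, 0.300 with the exon 3 guide and 0.836 with the exon 2 guide. The groups did not overlap, but the counting intervals of the vector control (1.24 to 2.36) and the exon 2 knockout (0.514 to 1.36) did. The knockout mean was 28.4% of the control mean. The log2 change was -0.95 with an SE of 0.400 and an adjusted p of 0.234 in limma, and it was -1.77 with a pseudocount of 0.1, since a pseudocount of 1 is near the level of the gene.

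Fdps (chromosome 3 from 89093588 to 89101959, minus strand) encodes farnesyl diphosphate synthase at the branch point. Its RPKM was 80.5 in parental cells, 64.1 in vector control cells, 59.0 with the exon 3 guide and 40.1 with the exon 2 guide. The groups did not overlap, yet the counting intervals of the vector control (61.4 to 67.0) and the exon 3 knockout (56.3 to 61.8) did. On the log2 scale the change was -0.55 with an SE of 0.319 and an adjusted p of 0.359 in limma.

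Fdft1 and Sqle commit the pathway to sterols: squalene synthase joins 2 farnesyl units, and squalene epoxidase carries out the first oxygen-dependent step. Fdft1 (chromosome 14 from 63145150 to 63179578, minus strand) had an RPKM of 63.6 in parental cells, 44.5 in vector control cells, 47.8 with the exon 3 guide and 46.8 with the exon 2 guide. The parental line was high, and the other lines lay between 44.5 and 47.8 RPKM. Sqle (chromosome 15 from 59315077 to 59331192, plus strand) had an RPKM of 184 in parental cells, 111 in vector control cells, 121 with the exon 3 guide and 105 with the exon 2 guide. Here too the parental line stood above the rest, and the vector control lay between the knockouts. The log2 change was -0.17 with an SE of 0.310 and an adjusted p of 0.793 in limma for Fdft1 and -0.34 (SE 0.327, adjusted p 0.582 in limma) for Sqle, both near their SE or below it.

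Lss (chromosome 10 from 76531588 to 76557138, plus strand) encodes lanosterol synthase, which folds squalene epoxide into the first sterol. Its RPKM was 86.5 in parental cells, 44.2 in vector control cells, 33.2 with the exon 3 guide and 28.5 with the exon 2 guide. Both knockouts were below both controls and close to each other, while the controls were far apart. The mean was 65.4 ± 29.9 in the controls and 30.9 ± 3.37 in the knockouts (SD, n = 2 each). The knockouts differed from the controls by -0.99 on the log2 scale (SE 0.357). In limma the adjusted p was 0.188, with 0.00610 to 0.615 over the alternatives.

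How far the knockouts stood from the controls depended on which control was used. Without the vector control, both knockouts were below the parental line for 8 of the 8 genes and for 41.4% of all tested genes, and above it for 0 of the 8 and 37.8%. In that fit limma called 2 of the 8, Hmgcs1 (adjusted p 9.66e-04) and Lss (adjusted p 0.00610), and 4.15% of all tested genes. Without the parental line, both knockouts were below the vector control for 4 genes, where 47.3% of all tested genes were, and above it for 2, Srebf2 and Fdft1, where 31.7% were. Limma then called 0 of the 8 and 7.25% of all tested genes. The single control left was assumed to vary like the knockouts in these fits. The median log2 change of the 8 genes was -0.72 without the vector control, -0.35 without the parental line, -0.76 without the exon 3 knockout and -0.26 without the exon 2 knockout.

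The 2 controls were therefore set against each other. All 8 genes were lower in the vector control than in the parental line, where 36.6% of all tested genes were. The vector control held between 51.1% (Lss) and 79.6% (Fdps) of the parental RPKM. Srebf2 and Sqle both stood at 60.1% of the parental level and Hmgcs1 at 61.2%. The median difference was -0.60 on the log2 scale, against 0.16 over all tested genes. At least 2-fold lower on the log2(RPKM + 1) scale were 0 of the 8 and 5.19% of all tested genes. The parental line had the highest level of the 4 lines for 8 of the 8 genes and for 20.9% of all tested genes, a count made after the values were seen. With 1 library for each control, the vector and a difference between cultures cannot be told apart.

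Against the vector control alone, which by its label carries a vector as the knockouts do, the 8 genes had a median log2 difference of -0.06 with the exon 3 guide and of -0.56 with the exon 2 guide, where all tested genes had medians of -0.14 and -0.13. With the guides against exon 3 and exon 2, Hmgcs1 was at 42.2% and 67.2% of the vector control. Lss was at 75.2% and 64.4%, and Idi1 at 17.5% and 48.9%. Srebf2 was at 143% and 122% of the vector control. For Hmgcs1 and Lss the counting intervals of both knockouts lay below that of the vector control, and for Idi1 that of the exon 3 knockout did. For Mvd and Fdps the interval of the exon 2 knockout lay below it, at 65.3% and 62.5% of the vector control. For Srebf2 the intervals of both knockouts lay above it, and for Sqle that of the exon 3 knockout did.

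On the log2(RPKM + 1) scale 0 of the 8 genes were at least 2-fold apart between the 2 knockouts, and 4.99% of all tested genes were. Without the pseudocount Idi1 was past 2-fold, at 0.300 and 0.836 RPKM from 6 and 16 reads. Mvd and Fdps were lower in the exon 2 than in the exon 3 knockout, with log2 differences of -0.61 and -0.55. Hmgcs1 and Idi1 were higher in the exon 2 knockout, by 0.66 and 0.50. For Fdft1, Sqle, Lss and Srebf2 the difference was between -0.23 and -0.03. Each knockout has 1 library, so these differences have no replicate check.

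**Figure D2:**
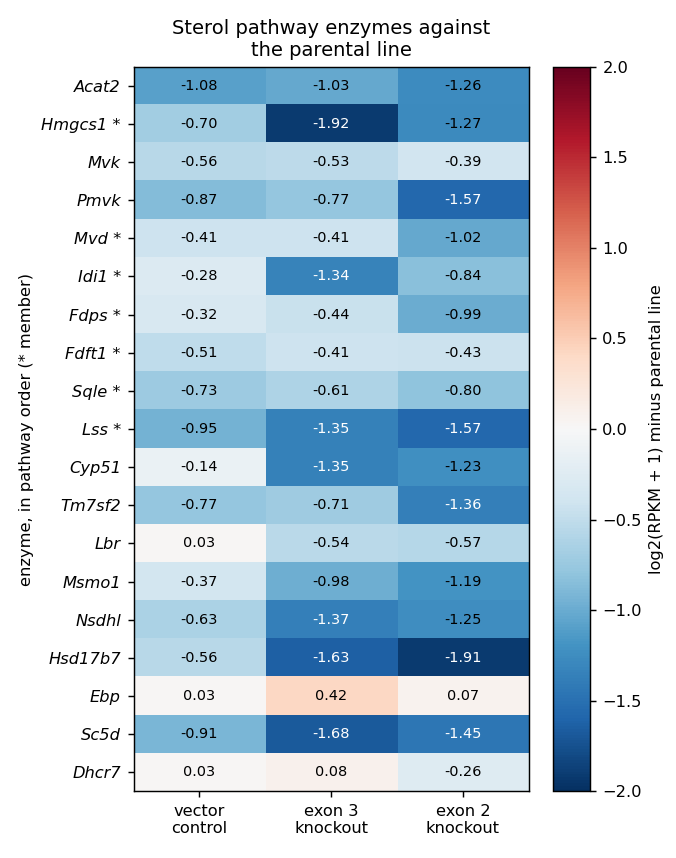
Difference in log2(RPKM + 1) from the parental line for 19 enzymes of cholesterol synthesis, in pathway order from Acat2 to Dhcr7, with 1 column for each other line and asterisks at the 7 enzymes among the 8 genes. Most cells are blue (below the parental line), with Lbr, Ebp and Dhcr7 near 0 in the vector control.

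The rest of the pathway was examined with a list of 21 enzymes that starts at acetoacetyl-CoA thiolase (Acat2), 7 of them described above. All 21 had a mean RPKM of at least 1. Of the other 14 enzymes, 13 had a negative and 1 a positive log2 change between knockouts and controls, with a median of -0.69. Among all tested genes, 5974 changes were negative and 4897 positive. In limma 0 of the 14 had an adjusted p under 0.05 (0.0184% of all tested genes), and 6 were lower at an unadjusted p under 0.05 (13.8%). In 8 of the 14 both knockouts lay below both controls (31.2%), and in 1, Ebp, both lay above (21.9%). Of the 14, 11 were highest in the parental line (20.9%). Their median log2 difference from the vector control alone was -0.46 with the exon 3 guide and -0.56 with the exon 2 guide. All tested genes had medians of -0.14 and -0.13 there.

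Mvk, which phosphorylates mevalonate, had an RPKM of 69.3 in parental cells, 46.8 in vector control cells, 47.8 with the exon 3 guide and 52.6 with the exon 2 guide. The parental line was high and the others close, and the log2 change was -0.18 (SE 0.314). Pmvk, the kinase of the step after it, was at 216 RPKM in parental cells, 118 in vector control cells, 126 with the exon 3 guide and 72.2 with the exon 2 guide, with a change of -0.73 (SE 0.378).

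The 10 enzymes that act on lanosterol and its products had a median change of -0.77, and the 6 from Acat2 to Mvd one of -0.67. Hsd17b7, a sterol ketoreductase, stood at 23.5 RPKM in vector control cells, 10.6 with the exon 3 guide and 8.59 with the exon 2 guide, which is -0.56, -1.63 and -1.91 from parental cells on the log2 scale. The log2 change was -1.49 with an SE of 0.332 and an adjusted p of 0.101 in limma. The 2 controls were close for Cyp51, the lanosterol demethylase. Its RPKM was 264 in parental cells, 239 in vector control cells, 103 with the exon 3 guide and 112 with the exon 2 guide. The change on the log2 scale was -1.22 (SE 0.288), at an adjusted p of 0.105 in limma. Sc5d had a change of -1.11 and Msmo1 (listed under the older symbol Sc4mol) one of -0.90, with Nsdhl between them, each with both knockouts below both controls. Ebp, the sterol isomerase, was at 55.5 and 56.8 RPKM in the controls and 74.6 and 58.3 in the knockouts, a change of 0.23 (SE 0.299). Dhcr7 was at -0.10 (SE 0.300).

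**Figure D3:**
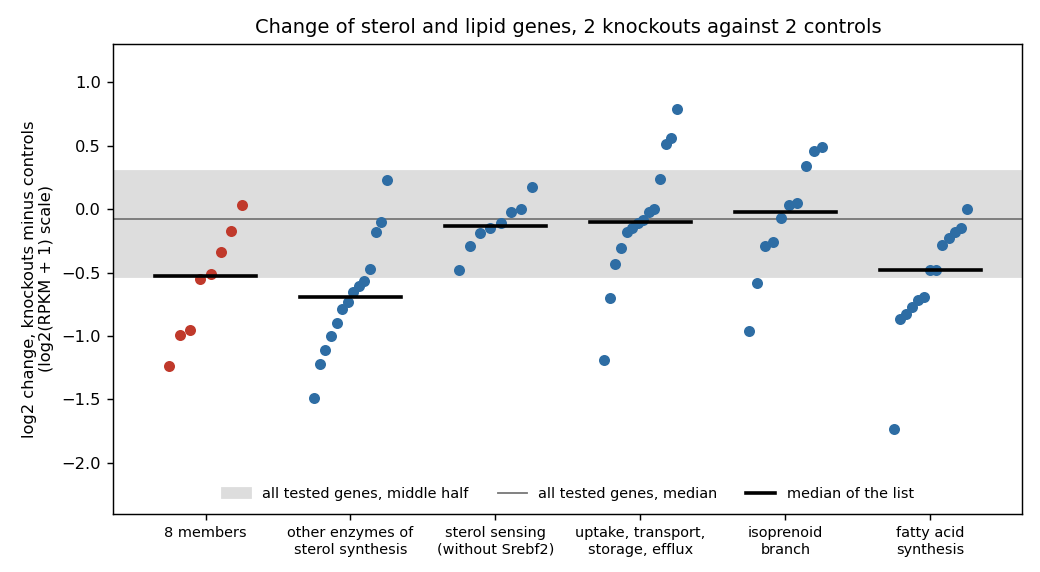
Log2 change between knockouts and controls for each gene of the 8 described and of 5 lists of sterol and lipid genes, with the median of each list as a black bar and the range between the lower and upper quartile of all tested genes (-0.53 to 0.30) in grey. The 8 genes, the other sterol enzymes and the fatty acid genes lie mostly below the median of all genes, and the isoprenoid and sterol sensing genes lie around it.

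The genes that sense sterol lay closer to the median of all genes. The 8 sensing genes other than Srebf2 had a median log2 change of -0.13. In limma 0 of 8 had an unadjusted p under 0.05 in either direction. Of all 10871 tested genes 1498 (13.8%) were lower and 578 higher at that threshold. Srebf1, which encodes the related factor of fatty acid synthesis, was at 66.1 and 46.6 RPKM in parental and vector control cells and at 67.2 and 45.6 with the guides against exon 3 and exon 2. Scap, the escort of the SREBP proteins, had a change of 0.17 (SE 0.322), and Insig1 and Insig2, which retain it, had -0.15 (SE 0.350) and -0.19 (SE 0.309).

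The 14 genes of uptake, transport, storage and efflux had a median change of -0.10, and limma called 0 of them (0.0184% of all tested genes). Stard4, a carrier of cholesterol within the cell, was at 54.8 and 37.7 RPKM in parental and vector control cells and at 19.1 and 19.7 with the guides against exon 3 and exon 2. On the log2 scale the change was -1.19 with an SE of 0.317 and an adjusted p of 0.127 in limma. Soat1, which esterifies cholesterol for storage, had a change of -0.70 (SE 0.308), and Nr1h2, an oxysterol receptor, one of 0.79 (SE 0.301).

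The isoprenoid branch, which leaves the pathway at farnesyl diphosphate, had a median change of -0.02 over 10 genes. Of these 5 were negative and 5 positive, where all tested genes had 5974 negative and 4897 positive changes. In the parental line 1 of the 10 was highest (20.9% of all tested genes). Of 13 genes of fatty acid synthesis, the other pathway under SREBP control, 13 had a log2 change below 0 with a median of -0.48, although Srebf1 was at -0.00. Limma called 0 of the 13 (0.0184% of all tested genes), and 4 were lower at an unadjusted p under 0.05 (13.8%). Of the 13, 11 were highest in the parental line (20.9%). Their median log2 difference from the vector control alone was -0.10 with the exon 3 guide and -0.23 with the exon 2 guide. All tested genes had medians of -0.14 and -0.13 there. Elovl6, a fatty acid elongase, was at 23.0 and 17.7 RPKM in parental and vector control cells and at 4.56 and 6.31 with the guides against exon 3 and exon 2, with a change of -1.73, an SE of 0.334 and an adjusted p of 0.0957 in limma. Acly, which supplies acetyl-CoA to both pathways, had a change of -0.83 (SE 0.291), and Fasn one of -0.87 (SE 0.353).

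**Figure D4:**
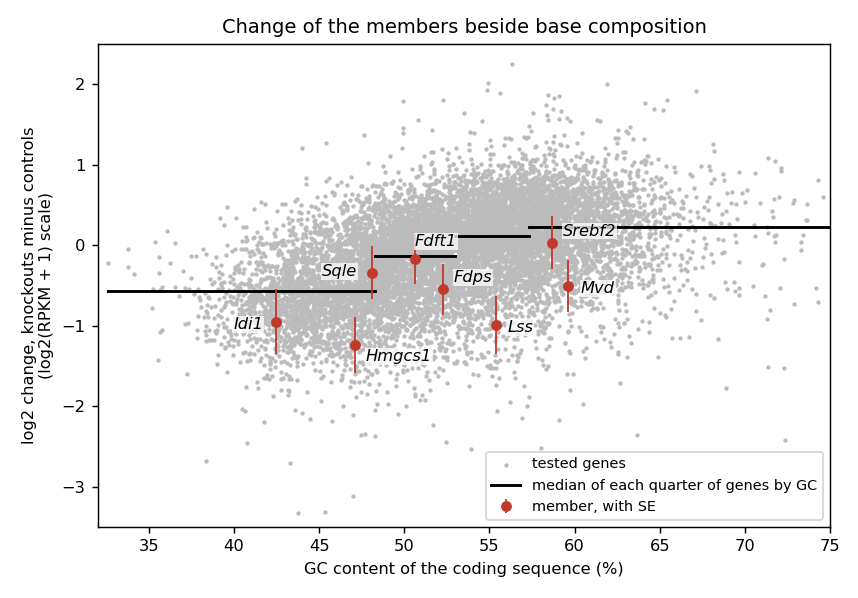
Log2 change between knockouts and controls against the GC content of the coding sequence, with tested genes in grey, the medians of 4 GC ranges with equal numbers of genes as black lines and the 8 genes in red with SE. Hmgcs1, Idi1 and Sqle lie in the range with the lowest GC content, whose median is -0.57. Of the 8 genes only Sqle lies above the median of its range, and the others lie below, Fdft1 by little.

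The changes were read beside base composition, since the change between knockouts and controls moved with GC content over all genes. The median change was -0.57 in the 2695 genes with the lowest GC content of the coding sequence and 0.23 in the 2695 with the highest. Idi1 (42.5%), Hmgcs1 (47.1%) and Sqle (48.1%) belong to the first set, and Srebf2 (58.7%) and Mvd (59.6%) to the second. After correction of each library for GC content and length, the change was -0.93 for Hmgcs1, -0.53 for Idi1 and -0.08 for Sqle, all nearer to 0 than before. It was -1.10 for Lss (55.4%), -0.85 for Mvd and -0.67 for Fdps (52.3%), all farther from 0. The median of the 8 genes was -0.60 after the correction, against -0.08 over all genes. Both knockouts then lay below both controls for 5 of the 8, and the share over all tested genes was not counted under this correction. Among the other genes named above, the correction moved Msmo1 to -0.49, Ebp to 0.10, Soat1 to -0.37, Nr1h2 to 0.45, Scap to 0.11 and Insig2 to -0.02, nearer to 0. It moved Pmvk to -1.15, Mvk to -0.52, Dhcr7 to -0.25, Insig1 to -0.54 and Srebf1 to -0.12, farther from 0, and Sc5d went to -0.74.

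The genes outside the lists whose levels followed the lines most closely were found by the root mean square distance, over the 4 libraries, between centred log2(RPKM + 1) profiles. The mean profile of the 7 enzymes was 0.62 in parental cells, 0.06 in vector control cells, -0.31 with the exon 3 guide and -0.37 with the exon 2 guide. Among the 5 nearest to it were Tnrc6c (distance 0.0299), Tsc22d2, Bcl2 and Zcchc24 (0.0457). The profile of Srebf2 was 0.35, -0.38, 0.13 and -0.10 in the same order, and Etv4 (0.0323), Fam132b, Clip2 and Dgkd (0.0465) were among the 5 nearest. Of the 10871 tested genes, with those in the lists left out, 55 lay within a distance of 0.1 of the first profile and 58 of the second. Such nearness was thus not particular to the named genes.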

How the data were processed

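The authors deposited 1 table of RPKM values, not on a log scale, with 1 column for each of the 4 libraries. All 4 columns were matched to a library by label, with 0 left unmatched. The submitters' processing notes name CASAVA 1.8, GSNAP and GRCm38. The gene model and counting rule are not given in the sources used here. Whole reads were recovered from the ratios between libraries for 14196 genes with values above 0 in at least 2 libraries (100.0% whole within the tolerance), which gave totals of 31235456, 25396254, 23474246 and 22472024 for the parental line, vector control, exon 3 and exon 2 knockouts. The smallest whole solution was taken, so the reads of genes whose length matched no annotated coding length may be understated by a common factor. Wilson intervals (95%) rest on the recovered reads and cover counting error only. They would be narrower with more reads.

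Genes with a mean RPKM of at least 1 (10871) were tested on log2(RPKM + 1) with limma 3.58.1 (R 4.3.3) with an intensity trend, 2 knockouts against 2 controls, two-sided, with Benjamini-Hochberg adjustment over all tested genes and a threshold of 0.05. A fold change on this scale understates the change of low genes. The test was run on simulated data first. Named genes were the 8 members, S100a4, genes of the lists, and the 5 nearest profiles to the mean of the enzymes and to Srebf2. Some of the genes so selected are not reported here by themselves and enter only counts and medians. Members and lists were chosen with earlier results of these data known. Positions and coding sequences are from GENCODE M21 (GRCm38), promoters from RefSeq. Alternatives were other pseudocounts, scalings, filters and priors, a GC and length correction (99.2% of tested genes) and leaving out each library. Python 3.11.15, numpy 2.4.6, pandas 2.3.3, statsmodels 0.14.6 and matplotlib 3.10.9 were used.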

Additional observations from a re-analysis of the deposited data

Results flagged for a closer look

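Of the 66 genes in the lists, 6 (9.09%) had the exon 3 and exon 2 knockouts on opposite sides of both controls, as did 7.88% of all tested genes, and none of the 8 genes described was among them. With 1 library each, the knockouts were not tested against each other, so the difference was not tested. The log2 difference, exon 2 minus exon 3 knockout, was -0.71 for Npc1, the lysosomal cholesterol exporter, and -0.55 for Srebf1. Dhcr7, the reductase of the last step of one branch of the pathway, had -0.34. The subunits of the enzyme that makes the ubiquinone side chain had 0.79 (Pdss1) and 0.09 (Pdss2).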

How the results depend on the processing

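The median log2 change of the 8 genes stayed below 0 under all alternatives run, from -0.76 to -0.26 when each library was left out in turn and at -0.43 without Idi1 and Fdps, an alternative chosen after seeing the data, as was voom on whole reads (-0.54). The number of the 8 with an adjusted p under 0.05 was 0, 1 with a robust prior (Hmgcs1, adjusted p 0.0442), and 0 to 2 when a library was left out. With all libraries, both knockouts lay below both controls for 3 genes with median ratio scaling or a mean RPKM of at least 5 (which leaves out Idi1). The count was 5 with quantile normalization or the GC and length correction. With a library left out, the comparison is looser. Both knockouts lay below the parental line for 8 genes (41.4% of all tested genes). They lay below the vector control for 4 (47.3%) and above it for 2 (31.7%). The exon 2 knockout alone lay below both controls for 6 genes, and the exon 3 knockout alone for 4. Where no share is given, it was not counted. At 1.5-fold in place of 2-fold on the log2(RPKM + 1) scale, 4 of the 8 differed between the controls and 2 between the knockouts. The share of all tested genes at 1.5-fold was not counted, so whether these counts are unusual cannot be said. Srebf2 changed sign to -0.14 with quantile normalization and -0.06 with the GC and length correction, and ranged from -0.33 to 0.40 without single libraries, with -0.08 without the exon 3 knockout. Fdft1 was at 0.09 and Sqle at 0.02 without the parental line, with lowest values of -0.42 and -0.71. Of 103 values of single genes under an alternative, 94 kept direction and side of the threshold, 6 changed sign and 3 passed the threshold. Among all genes limma called 2, against 32 with a mean RPKM of at least 5, 285 with a robust prior, 1 with a pseudocount of 0.1 or quantile normalization, 0 with median ratio scaling, no filter, the GC and length correction or voom, and 3 to 788 without single libraries (788 without the parental line, 451 without the vector control). Quantile normalization moved the median of all genes by 0.12. The cause was not tested. No paired analysis was possible because the titles carry no replicate numbers. Counting error limits Idi1 and the small difference of Fdps between the vector control and the exon 3 knockout.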
